A study of Mus musculus with 2 samples.

Results

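Cadherins are calcium-dependent adhesion molecules of the cell surface, and 10 of their genes were followed here in the embryonic mouse hindbrain, from which pons, cerebellum and medulla develop. The rule that picks the genes is a list of names, some of the type I and type II cadherins together with Cdh13, and uses no measured value. The list was, however, drawn up with earlier results of these data known. These genes are 10 of 43346 annotated genes in the deposited tables. Type I comprised Cdh2 (N-cadherin), Cdh3 (P-cadherin) and Cdh4 (R-cadherin). Type II comprised Cdh6, Cdh7, Cdh8, Cdh10, Cdh11 and Cdh20, and Cdh13 is T-cadherin. Total RNA was sequenced from B6NCrl embryos at 10.5 days, males and females pooled, in 1 group of 2 biological replicates without any treatment. Replicate 1 pooled the hindbrains of 69 embryos and replicate 2 those of 51, and 10 ng of RNA with synthetic spike-ins entered each library. Both pools carry 1 shared donor ID in the labels, which do not state where the tissue was cut.

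A classic cadherin binds a cadherin on the next cell through its outermost repeat, and its cytoplasmic tail binds beta-catenin and p120-catenin, with alpha-catenin as the link to actin. The neural plate switches from Cdh1 (E-cadherin) to Cdh2 as it closes, and Cdh2 then holds the neuroepithelium together at its apical junctions. Type II cadherins are typically expressed in restricted regions and neuron groups of the brain. Cdh13 carries no cytoplasmic tail and is held in the membrane by a lipid anchor.

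The sequences below show what separates the types, because the readout that follows is RNA and says nothing of adhesion. A cadherin becomes adhesive after a convertase removes its propeptide behind a motif of 4 residues, and the tryptophans that then lie near the new end dock into the partner molecule. Each line gives 36 bases of coding sequence 5′ to 3′, sense strand, from the transcript with the longest coding sequence in GENCODE M21 (mm10). The bases are 4 codons of the motif and the 8 codons after it, and capitals mark tryptophan codons after the cleavage point.
Cdh3: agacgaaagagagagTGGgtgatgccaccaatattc
Cdh4: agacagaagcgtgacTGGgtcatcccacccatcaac
Cdh6: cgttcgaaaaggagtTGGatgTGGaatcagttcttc
Cdh7: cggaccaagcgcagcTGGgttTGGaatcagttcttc
Cdh8: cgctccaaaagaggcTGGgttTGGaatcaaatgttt
Cdh10: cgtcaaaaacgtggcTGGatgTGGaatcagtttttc
Cdh11: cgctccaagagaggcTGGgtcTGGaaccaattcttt
Cdh20: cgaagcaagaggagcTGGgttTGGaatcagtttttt
Cdh13: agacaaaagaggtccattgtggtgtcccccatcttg

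Counted from the cleavage point, the type I members had 1 tryptophan codon, at position 2, and Cdh2, whose bases are not printed, had the same. All 6 type II members had 2, at positions 2 and 4. Cdh13 had none in these 8 codons. The HAV tripeptide, known as an adhesion motif of type I cadherins, was at position 79 of the mature protein in Cdh2, Cdh3 and Cdh4 and in no other member. Translated from the cleavage point, the 15 pairs of type II members shared 59.1% to 75.6% of aligned residues. The 3 type I pairs shared 48.5% to 73.7%, and the 18 pairs across the types 34.95% to 42.4%. Cdh13 was nearer to type I (43.0% to 47.9%, 3 pairs) than to type II (33.7% to 37.6%, 6 pairs).

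Expected counts over annotated genes came to 38170090 for replicate 1 and 36382245 for replicate 2. An expected count is an estimate that divides reads matching several genes or transcripts. Levels are in TPM, transcript abundance per length scaled to a fixed total, which allows genes to be compared. A gene was called detected if both libraries reached 1 TPM. Values are the mean ± SD of the 2 libraries (n = 2). With 1 group there was no comparison between conditions, and 2 libraries cannot give a two-sided exact p below 0.5, so no test was run. Of 8 hindbrain markers 7 were detected, among them Hoxa2 at 47.1 and 27.3 TPM in replicates 1 and 2. The exception was Egr2, at 0.45 and 1.72 TPM, which was past 2-fold between the libraries (log2 ratio 1.77).

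All 10 cadherins were detected, over a wide range of levels, beside 33% of all 43346 annotated genes (14291 genes). The 10 were chosen with earlier results known, so their choice may have set this count. Of 9 other type I and type II cadherins, left out of the list, 4 were detected. Cdh2 and Cdh11 were far above the rest, Cdh6 followed, Cdh3, Cdh4 and Cdh13 formed a middle tier, and Cdh10, Cdh8, Cdh7 and Cdh20 lay near the detection threshold. Cdh2 alone made up 52.8 ± 2.01% of the summed TPM of the 10 genes, and Cdh11 a further 26.9 ± 0.611%. The remaining 8 genes shared the rest, from Cdh6 (8.59 ± 3.03%) down to Cdh20 (0.529 ± 0.0756%). In bulk tissue, few cells with much RNA and many cells with little cannot be told apart.

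**Figure D1:**
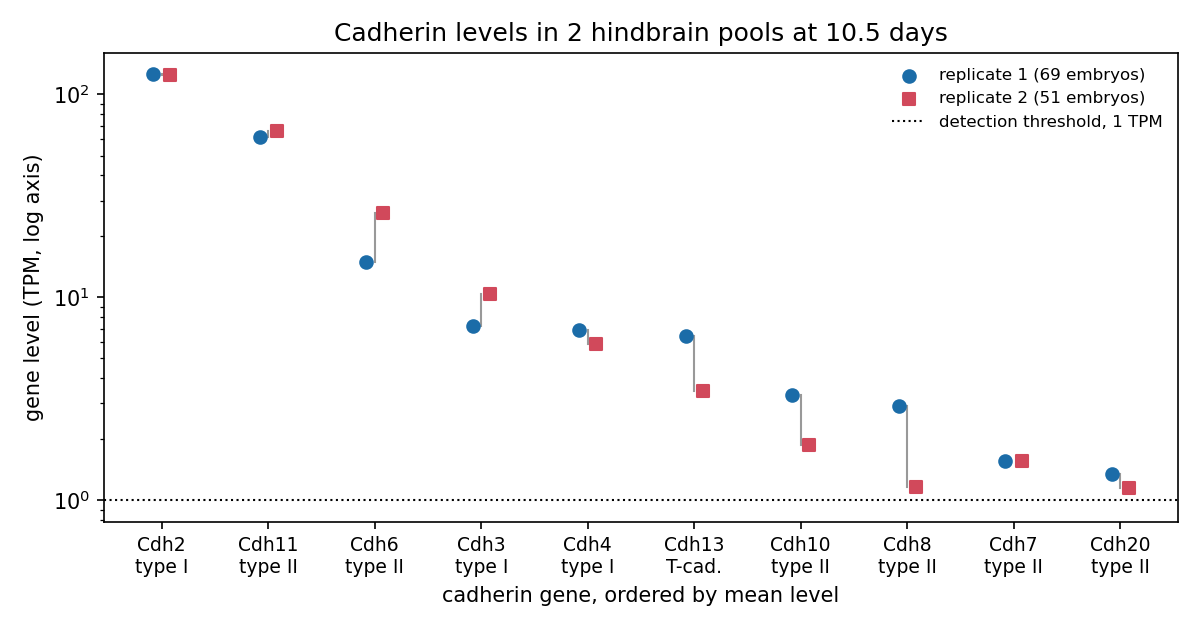
Level of each cadherin in TPM (log axis) in replicate 1 (circles, 69 embryos) and replicate 2 (squares, 51 embryos), joined by a grey line and ordered by mean, with the detection threshold of 1 TPM dotted. Cdh2 lies near 125 TPM in both pools, and the gap between the pools is widest for Cdh8 (2.93 and 1.16 TPM).

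Among the type I genes, Cdh2, the principal cadherin of the neuroepithelium, was at 126 and 124 TPM in replicates 1 and 2 (125 ± 1.01 TPM). These values rest on 13448 and 11841 counts, and 91.0% of the 15006 genes whose mean reached 1 TPM had a lower level. Cdh3, a cadherin of several epithelia, was at 7.26 and 10.4 TPM (8.85 ± 2.25 TPM). It was higher in replicate 2, by a log2 ratio of 0.44 with a 95% interval from counting error of 0.31 to 0.58. Cdh4, first described in the retina, was at 6.93 and 5.86 TPM (6.40 ± 0.757 TPM) and was lower in replicate 2 by a similar margin (log2 ratio of -0.36, counting interval -0.49 to -0.23). Both libraries of Cdh2 thus lay far above those of the other type I genes, and Cdh3 and Cdh4 were close to each other.

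Among the type II genes, Cdh11, a cadherin of mesenchyme that is also expressed in the developing brain, was at 61.4 and 66.2 TPM (63.8 ± 3.37 TPM). Cdh6, known from the kidney, from neural crest and from parts of the hindbrain, was at 14.9 and 25.95 TPM (20.4 ± 7.79 TPM). The remaining type II genes were low. Cdh10 was at 3.30 and 1.88 TPM (274 and 135 counts), and Cdh8 at 2.93 and 1.16 TPM (225 and 74 counts), both lower in replicate 2. Cdh7 was at 1.56 TPM in both libraries, from 171 and 161 counts. Cdh20 was at 1.35 and 1.15 TPM, from 143 and 109 counts. Cdh13, the lipid-anchored member, was at 6.46 and 3.47 TPM (4.97 ± 2.11 TPM; 444 and 211 counts), again with replicate 1 the higher.

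The order by mean level was Cdh2, Cdh11, Cdh6, Cdh3, Cdh4, Cdh13, Cdh10, Cdh8, Cdh7 and Cdh20. Neighbours in this order were counted as separated where both libraries of the higher gene lay above both of the lower, which held for 6 of 9 neighbouring pairs. Cdh4 was not separated from Cdh13, Cdh10 not from Cdh8, and Cdh8 not from Cdh7. Some separations were narrow: the lower value of Cdh3 was 7.26 TPM against 6.93 TPM for the higher value of Cdh4, and the lower value of Cdh13 was 3.47 TPM against 3.30 TPM for Cdh10. Levels per length depend on the gene models of the files. For Cdh6 the files used a transcript of 2632 bases, while GENCODE M21 gives the same transcript 8167 bases, so that reads in 5535 bases did not enter its value. The same difference was 1431 bases for Cdh11 and 411 bases for Cdh3, and 0 for the longest coding transcript of the other 7.

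Several members lie on the same chromosome as another member. Cdh8 (mm10, chromosome 8, 99024471 to 99416471), Cdh11 (102632095 to 102785642), Cdh3 (106510891 to 106557297) and Cdh13 (118283733 to 119324921) share chromosome 8. Cdh6 (13028701 to 13173675) and Cdh10 (18818947 to 19014236) lie on chromosome 15, and Cdh20 (104768529 to 104995481) and Cdh7 (109982431 to 110140157) on chromosome 1. Cdh4 lies on chromosome 2 (179442431 to 179899373). On chromosome 8 the members ranged from 2.05 TPM (Cdh8) to 63.8 TPM (Cdh11), while the pair on chromosome 1, Cdh7 and Cdh20, had the lowest mean levels of the 10, at 1.56 and 1.25 TPM. The genes are long, from 46.4 kb for Cdh3 to 1041 kb for Cdh13. Among the annotated genes that overlap a member's span and have a row in the files, the highest had 10 counts in a library, so little of a member's count could have been divided with them.

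Which transcripts carried these levels differed between the members. In the files, 4 genes (Cdh3, Cdh6, Cdh11 and Cdh20) had a single transcript, which codes for the whole protein. For the other 6, the share of TPM was summed over transcripts that code to the same stop codon as the longest coding sequence, and therefore keep the catenin-binding end where the protein has one. This share was at least 50% in 8 of the 10 genes, counting the 4 with a single transcript, where no other outcome was possible. It was 93.7 ± 0.0960% for Cdh2, 92.3 ± 2.34% for Cdh4, 75.99 ± 8.17% for Cdh10 and 54.3 ± 3.59% for Cdh13. It was 16.1 ± 6.73% for Cdh8 and 7.39 ± 0.421% for Cdh7.

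**Figure D2:**
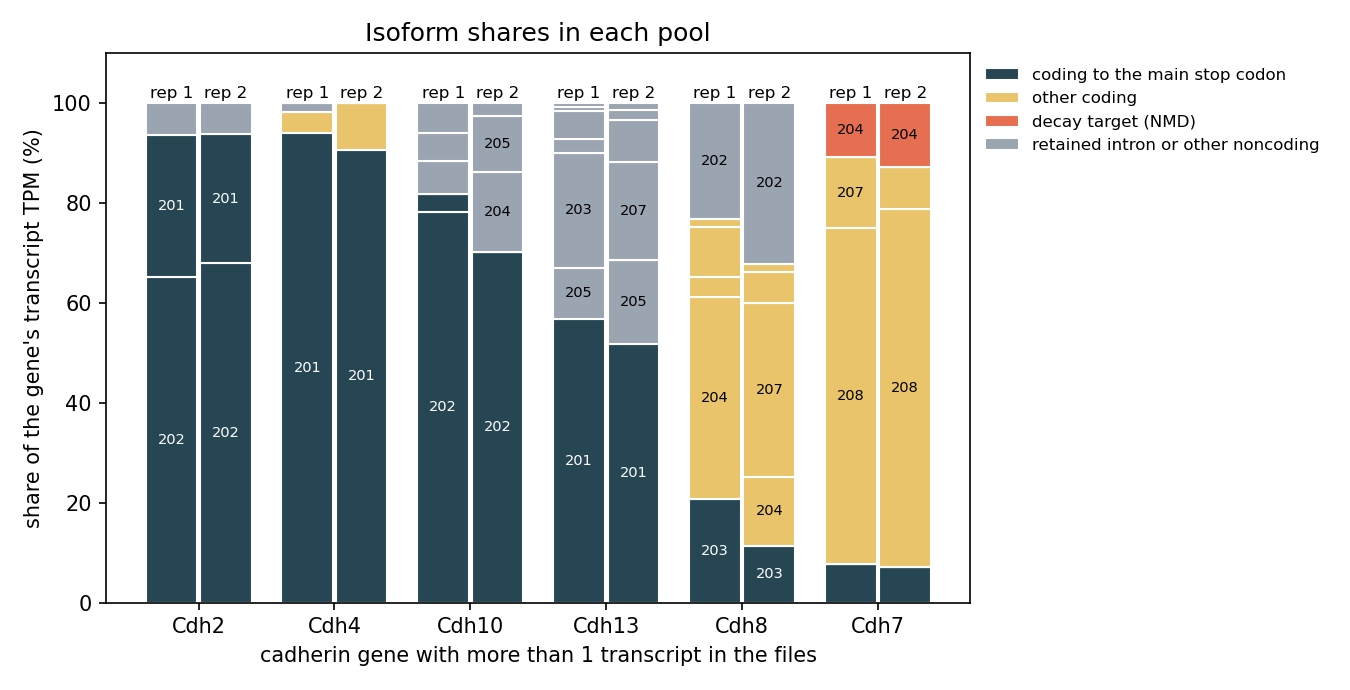
Share of transcript TPM (percent) in each transcript of the 6 cadherins with more than 1 transcript in the files, with a bar for each replicate and transcripts of at least 10% labelled by the number that ends their name. Dark blocks code to the main stop codon; they fill 93.6% of the Cdh2 bar of replicate 1 and 7.69% of the Cdh7 bar.

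Cdh7 had the lowest share. Its largest transcript was Cdh7-208, at 67.3% of the gene's TPM in replicate 1 and 71.6% in replicate 2, from 133 and 125 counts. This transcript has 2 exons and a coding sequence of 76 codons, against 785 codons in the full-length Cdh7-202. The full-length transcripts together had 0.12 and 0.11 TPM, from 15.2 and 13.2 counts, and Cdh7-201 and Cdh7-209 were listed at 0 in both libraries. Cdh7-204, annotated as a target of nonsense-mediated decay, was at 10.9% and 12.9%. The level of Cdh7 in the gene table was therefore mostly that of a transcript whose coding sequence holds neither the membrane span nor the tail and almost none of the repeats. The lines below show where the coding sequences part, with 30 shared bases in lower case and the next 18 bases in capitals, 5′ to 3′ on the sense strand from GENCODE M21 (mm10). The shared part ends at position 109994389 of chromosome 1, which is the end of the first coding exon of Cdh7-202.
Cdh7-208: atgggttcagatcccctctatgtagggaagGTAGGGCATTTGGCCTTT
Cdh7-202: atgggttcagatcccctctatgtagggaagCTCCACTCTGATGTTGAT
The 2 reading frames are identical for 210 bases, through the propeptide motif and the tryptophans shown above. Cdh7-208 then runs on past the exon end into the intron and stops after 228 coding bases, with 4262 further bases that are not coding. Its share is an estimate, with a posterior SD of 3.34 counts in replicate 1 and 4.24 in replicate 2, and was 55.4% over both libraries by posterior mean TPM. Whether these counts came from a finished short transcript or from unspliced RNA was not tested.

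Cdh8 was divided over several transcripts. The transcript that codes to the main stop, Cdh8-203, was at 20.8% in replicate 1 and 11.3% in replicate 2. Cdh8-204, which codes 711 codons with another end, was at 40.3% and 13.9%, and Cdh8-207, with 754 codons, at 4.10% and 34.8%. Cdh8-202, a transcript with a retained intron and no coding sequence, was at 23.2% and 32.2% of TPM, but at 10.7% and 15.8% of counts, at a length of 1410 bases. The gene had 225 and 74 counts to divide, and the posterior SD of Cdh8-204 alone was 17.6 counts in replicate 1 and 8.60 in replicate 2. The shares of the transcripts of Cdh8 are accordingly uncertain, and the order of Cdh8-204 and Cdh8-207 differed between the libraries.

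Cdh13 and Cdh10 held part of their TPM in transcripts without a coding sequence. The only coding transcript of Cdh13, Cdh13-201, was at 56.8% and 51.7% of TPM in replicates 1 and 2. The other 6 transcripts made up 43.2% and 48.3%. Cdh13-205 was at 10.2% and 16.8%, Cdh13-207 at 2.94% and 19.7%, while Cdh13-203 was at 22.9% in replicate 1 and listed at 0 in replicate 2. These shares rest on few counts. Cdh13-207 had 2.63 and 8.58 counts, with a posterior SD of 5.53 and 4.86. Cdh13-203 had 24.7 counts in replicate 1, with a posterior SD of 6.12. Most of the other 6 transcripts are shorter than Cdh13-201, so they weigh more in TPM than in counts, in which Cdh13-201 held 82.4% and 75.9%. By posterior mean TPM Cdh13-201 was at 50.8% and 45.6%. For Cdh10, Cdh10-202 was at 78.1% and 70.2%, and 3 transcripts with retained introns made up 18.2% and 29.8%.

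The major cadherin, Cdh2 (chromosome 18), was divided mainly between a pair of transcripts that code to the main stop. Cdh2-202 was at 65.2% and 67.9% of its TPM, and Cdh2-201 at 28.4% and 25.9%. Cdh2-202 starts at another first exon and codes 849 codons against 906. The stop codon is the same in both. The cleavage motif and the HAV tripeptide were located in Cdh2-201 only. The posterior SD of Cdh2-202 was 119 and 112 counts of 8162 and 7535, so both libraries placed Cdh2-202 above Cdh2-201 by more than this uncertainty. A transcript with a retained intron, Cdh2-203, was at 6.39% and 6.25%. Cdh4 was mostly a single transcript, Cdh4-201, at 93.9% and 90.6%, with the short Cdh4-203 of 334 codons at 4.18% and 9.37%.

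The pools were compared by the log2 ratio of replicate 2 over replicate 1 in CPM (counts scaled to library size, not length), set so that the typical gene is at 0. Directions are therefore relative to the typical gene: scaling to the spike-ins instead moved the median of all genes to 0.81, left Cdh8, Cdh10 and Cdh13 below 0 and put the other 7 cadherins above 0. With 1 library on each side the ratio has no p-value, and it describes the spread of these 2 pools, not an effect of any condition. A ratio of at least 1 in size, that is 2-fold, was reached by 1 of the 10 cadherins. It was reached by 5.88% of the same 15006 genes (883 genes), and by 11.6% of the 6091 genes between 1 and 10 TPM, where 7 of the 10 cadherins lie. The median ratio of the 10 was -0.21, beside -0.0003 over all genes tested, with 7 below 0 and 3 above.

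Cdh8 was the gene past the limit, at -1.50 (2.83-fold lower in replicate 2; counting interval -1.93 to -1.14). Of all genes tested, 4.3% were lower in replicate 2 by at least this 2-fold limit. Cdh13 and Cdh10 came just under it, at -0.99 (counting interval -1.24 to -0.76) and -0.93 (-1.25 to -0.64), so counting error alone spans the limit for both. In the other direction, Cdh6 was at 0.72 (0.60 to 0.83), 1.64-fold higher in replicate 2, and 11.1% of all genes tested were at least as far apart. The 2 most abundant members hardly differed, with Cdh2 at -0.11 (-0.14 to -0.07) and Cdh11 at 0.03 (-0.02 to 0.08). For Cdh7 (-0.01, from -0.33 to 0.31) and Cdh20 (-0.31, from -0.69 to 0.06) the counting interval included 0.

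**Figure D3:**
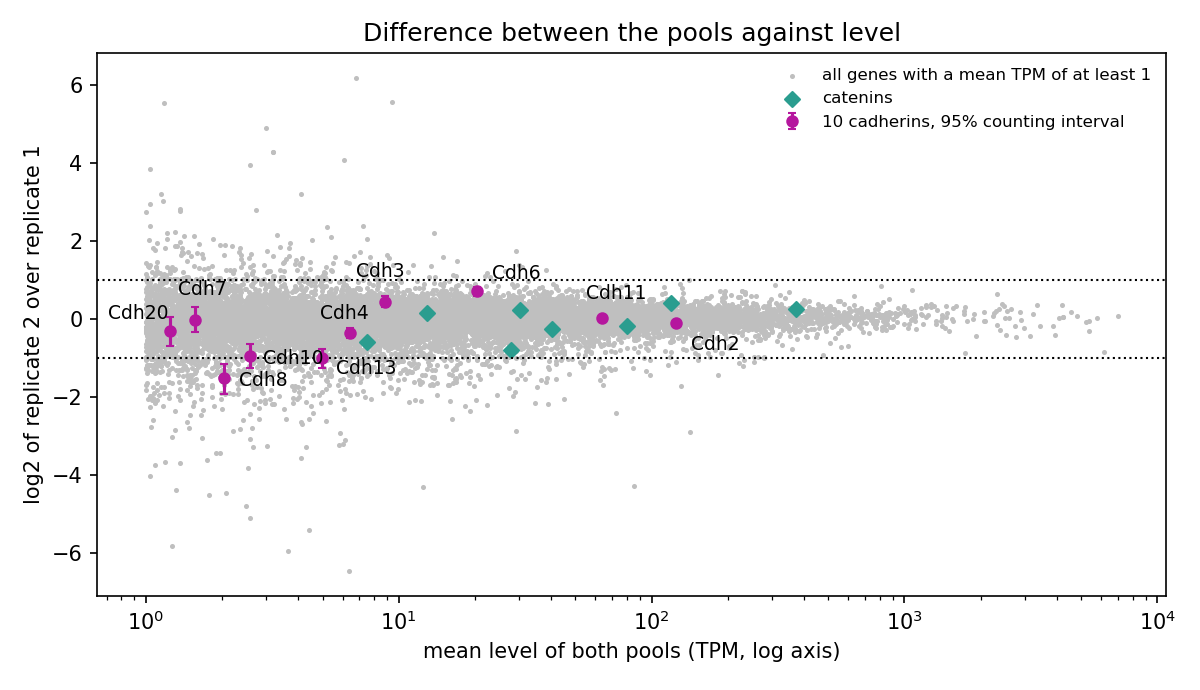
Log2 ratio of replicate 2 over replicate 1 against mean level in TPM (log axis) for all 15006 genes whose mean reached 1 TPM (grey), 8 detected catenins (diamonds) and the 10 cadherins (circles with 95% counting intervals); dotted lines mark 2-fold. Cdh8 at -1.50 is the only cadherin past a dotted line, and Cdh2 and Cdh11 sit near 0.

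Markers of cell types also differed between the pools. All 8 neuron markers were lower in replicate 2, with a median ratio of -0.97, and 4 of them (Dcx, Elavl3, Ina and Map2) were past 2-fold; their summed level was 1882 and 1171 TPM in replicates 1 and 2, and none was at 0. This is the direction and about the size of the ratios of Cdh8, Cdh10 and Cdh13; its part in them was not tested. Of the 5 roof plate and choroid plexus markers, 4 were lower in replicate 2, and the list had a median ratio of -1.12. Of these, 3 were past 2-fold: Kcne2 at 10.5 and 1.14 TPM, Ttr at 250 and 35.3 TPM, and Gdf7 at 1.5 and 0.69 TPM. Lmx1a went the other way, at 9.22 and 14.3 TPM (ratio 0.55). The list summed to 285 and 60.4 TPM, most of it Ttr. The 7 neural progenitor markers, with a summed level of 2246 and 1879 TPM, had a median of -0.16 and none past 2-fold. Of the 8 hindbrain markers, 6 were lower in replicate 2 and 2 higher. Their median ratio was -0.36, with a range from -0.86 for Hoxa2 to 1.77 for Egr2.

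Beside the higher level of Cdh6 in replicate 2, the 6 markers of neural crest and Schwann cell precursors did not move together. Sox10 was at 7.15 and 22.8 TPM (ratio 1.59), while Tfap2a was at 9.54 and 4.62 TPM (-1.12) and Tfap2b at 64.9 and 32.4 TPM (-1.01). Their summed level was 115 and 108 TPM, and 5 of 6 were detected; Foxd3 was under 1 TPM in both libraries, at 0.40 and 0.89 TPM. Beside Cdh3, 3 of 4 surface epithelium markers were higher in replicate 2, with Epcam at 13.2 and 31.7 TPM (ratio 1.18) and a summed level of 83.9 and 130 TPM; none was at 0. Beside Cdh11, the 7 mesenchyme markers, all detected, summed to 628 and 538 TPM with a median ratio of -0.19. The part of these cells in the levels of Cdh6, Cdh3 and Cdh11 was not tested.

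**Figure D4:**
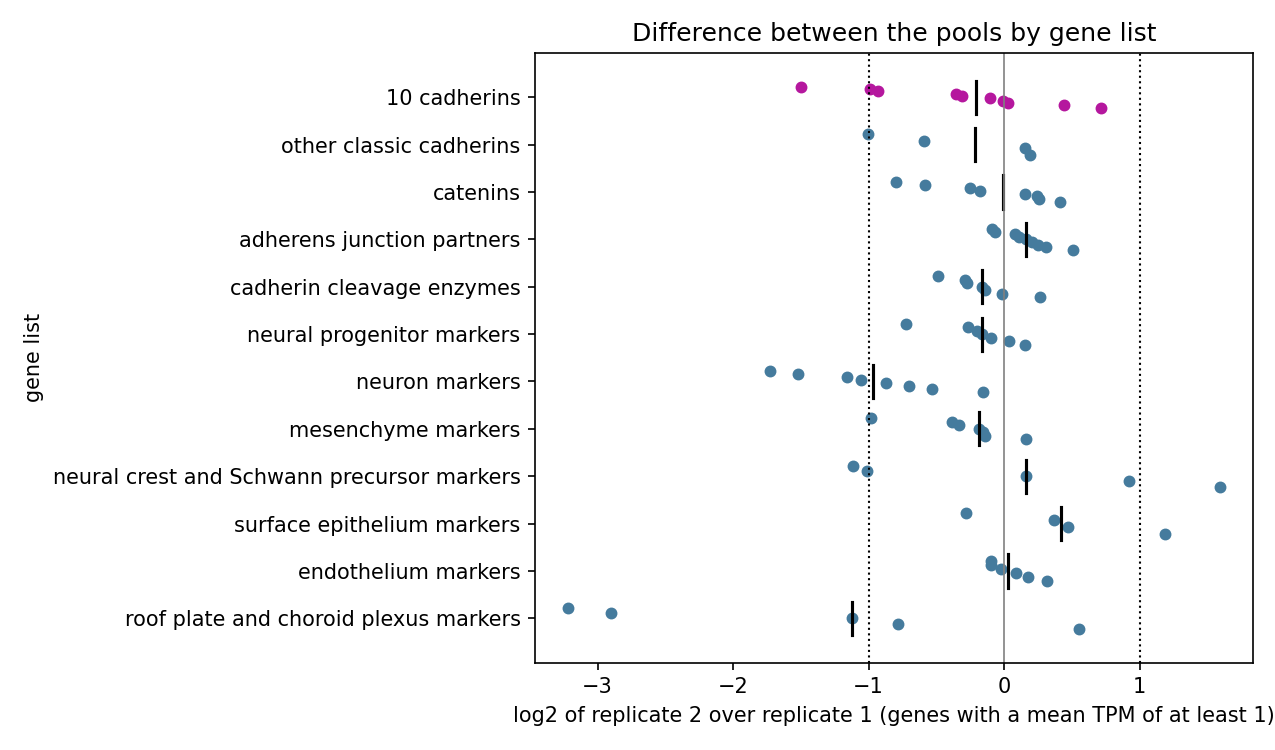
Log2 ratio of replicate 2 over replicate 1 for each gene whose mean reached 1 TPM, by gene list, with the list's median as a black bar and 2-fold as dotted lines. The 10 cadherins spread from -1.50 to 0.72, the 8 neuron markers are all below 0 with a median of -0.97, and the catenins centre on 0.

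Of 9 other type I and type II cadherins, 4 were detected. Cdh5, the cadherin of blood vessel endothelium, was at 10.3 and 12.1 TPM, and Cdh1, the cadherin of surface epithelia, at 7.18 and 8.82 TPM. Cdh24 was at 6.59 and 4.62 TPM. Cdh22, known from brain and pituitary, was at 6.96 and 3.70 TPM, with a ratio of -1.01 that lay at the 2-fold limit. These 4 had levels near those of Cdh3, Cdh4 and Cdh13. The brain cadherins Cdh9, Cdh12 and Cdh18 were under 0.5 TPM in both libraries, and Cdh15 of muscle was at 1.12 and 0.77 TPM. Cdh19, a cadherin of Schwann cell precursors, was at 0.34 and 1.14 TPM from 26 and 87 counts. Its ratio was 1.74, at a mean of 0.74 TPM. Over all 19 cadherins Cdh2 made up 46.4 ± 1.37% of the summed TPM.

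The 9 catenins, which link the cadherin tail to the cell, summed to 635 and 747 TPM, above the 232 and 242 TPM of the 10 cadherins. Ctnnb1, or beta-catenin, which also acts in Wnt signalling, was alone at 328 and 417 TPM. Ctnna1, the alpha-catenin of epithelia, was at 99.4 and 140 TPM, and Ctnna2, the neural alpha-catenin, at 33.95 and 21.7 TPM. Of the p120-catenin family, Arvcf was at 82.9 and 76.8 TPM, Ctnnd1 at 26.6 and 33.6 TPM, Pkp4 at 11.6 and 14.4 TPM and the neural Ctnnd2 at 8.82 and 6.20 TPM. Jup, or plakoglobin, was at 42.8 and 37.8 TPM. Of 9 catenins 8 were detected and none was past 2-fold between the pools; Ctnna3 was at 0.16 and 0.06 TPM. Among the 8 detected catenins, the neural forms had the lowest ratios, -0.79 for Ctnna2 and -0.59 for Ctnnd2, and Ctnna1 the highest, 0.41.

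All 9 further adherens junction genes were detected. Nectin2, an adhesion receptor beside the cadherins, was highest at 70.3 and 83.2 TPM, and Nectin1 lowest at 6.08 and 6.02 TPM. Of 8 enzymes that process cadherins, 7 were detected. Ncstn, a subunit of gamma-secretase, was at 101 and 94.6 TPM and Adam10, which sheds the ectodomain, at 41.8 and 53.0 TPM. Among convertases, which cut behind the motif in the sequences above, Pcsk7 was at 16.7 and 14.4 TPM, Pcsk5 at 4.68 and 3.51 TPM and Furin at 4.17 and 3.88 TPM. Pcsk6 was under the threshold in replicate 1, at 0.83 and 1.00 TPM. No gene of either list was past 2-fold between the pools, and their ratios ran from -0.09 to 0.51 and from -0.49 to 0.26.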

How the data were processed

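Per the labels, the authors sequenced total RNA over 200 nucleotides from each pool. Per the deposited file notes, the assembly was mm10 with annotation M4. No source used here names the aligner or the quantification program. The deposited tables hold an expected count, TPM, posterior mean TPM and FPKM per gene and transcript, the posterior SD of the count, and the percent of each isoform, per the file headers. Gene identifiers without version were matched to GENCODE M21 symbols (42462 of 43346, 98.0%). Isoform shares were recomputed from transcript TPM.

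Expected counts were rounded, and ratios between the pools used edgeR 4.0.16 (R 4.3.3) CPM with TMM factors from genes with a CPM of at least 1 in both libraries and a prior count of 2. No test was run. Intervals on a ratio are exact (Clopper-Pearson), cover counting error only, and treat reads as independent. The ratio script was tested on simulated data. Coding sequences came from GENCODE M21 transcripts, translated and aligned with biopython 1.88 (BLOSUM62, gap scores -11 and -1), since no table of proteins was used here. Spike-ins took 13.0% and 7.82% of TPM.

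The members and gene lists were chosen with earlier results of these data known. Named genes were all 10 cadherins, the detected catenins and other cadherins, list members past 2-fold, and the highest and lowest mean of each list. Named transcripts were the largest of each gene and those of at least 10% in both libraries. Other list members and transcripts were named after their values were seen. Alternatives were scaling by spike-ins, by total count or by DESeq2 1.42.0 size factors, other prior counts, filters, thresholds and units.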

Additional observations from a re-analysis of the deposited data

How the results depend on the processing

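With a threshold of 2 TPM, 6 of the 10 cadherins were detected, against 10 at 1 TPM; FPKM and the TPM of transcripts that code to the main stop each gave 8, and the latter was chosen after seeing the data. In CPM, without length, 6 of 10 kept their place in the order of levels. With replicate 1 left out 8 kept it (Cdh7 and Cdh8 changed places), and with replicate 2 left out 10 did. With spike-in scaling, the median of all genes tested moved to 0.81 (log2), the median ratio of the cadherins to 0.61, and 2 of them (Cdh3 and Cdh6) were past 2-fold while Cdh8 was at -0.70; relative to all genes the cadherin median was still -0.20. With a mean TPM of at least 5, 5 cadherins were left, 0 were past 2-fold and their median was 0.0284; this filter removes Cdh8. The other scalings and prior counts kept 1 cadherin past 2-fold, Cdh8. At least 50% of TPM in transcripts to the main stop held for 8 genes, and for 7 by posterior mean TPM, where Cdh13 was at 48.2%. Both counts include the genes with a single transcript, where no other outcome was possible. Of 30 alternative values of the largest isoform shares, 9 moved by more than the SD between the libraries. All 9 were by posterior mean TPM or by expected counts. Values with a library left out cannot move by this measure, and the deposited isoform percent restates the TPM share.

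Counting error limits the 4 lowest cadherins, with 74 to 274 counts a library. No paired analysis was possible because there is 1 group. No ratio could be had with a library left out.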

Other observations

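The transcription factors known to repress Cdh1 were all present. By mean level Zeb2 was highest, at 35.3 and 44.0 TPM in replicates 1 and 2, followed by Snai1 at 36.2 and 38.4 TPM and Zeb1 at 27.9 and 31.8 TPM. Twist1, also a gene of head mesenchyme, was lowest at 12 and 11.5 TPM. All 6 were detected, their ratios between the pools ran from -0.14 to 0.20, and none was past 2-fold. Cdh1 itself was at 7.18 and 8.82 TPM, beside the epithelial markers Epcam (13.2 and 31.7 TPM), Krt8 (37.5 and 51.0 TPM) and Krt18 (31.6 and 46.3 TPM). Krt14, of the same list, was lower in replicate 2, at 1.53 and 1.27 TPM from 44 and 34 counts.

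The 6 endothelium markers, all detected, summed to 142 and 169 TPM with a median ratio of 0.03 and a range of -0.10 to 0.32. Egfl7 was highest at 62.7 and 85.0 TPM and Tek lowest at 7.03 and 7.43 TPM. Cdh5 had a ratio of 0.16 (counting interval 0.035 to 0.278), and the part of endothelium in it was not tested. Of 4 muscle and heart markers, 3 were past 2-fold higher in replicate 2, with Myl7 at 2.11 and 12.3 TPM, Actc1 at 5.04 and 13.9 TPM and Tnnt2 at 0.28 and 2.45 TPM. The skeletal muscle gene Myog was at 0.27 and 0.12 TPM, from 10 and 4 counts (ratio -0.94, counting interval -3.37 to 0.55). This interval spans both directions. Cdh15, the cadherin of muscle, had a ratio of -0.61 (counting interval -1.16 to -0.10). The part of muscle cells in its level was not tested.

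In the other marker lists, the highest and lowest by mean level were Vim (929 and 858 TPM) and Sox1 (2.01 and 2.18 TPM) for neural progenitors, and Tubb3 (727 and 473 TPM) and Elavl3 (30.8 and 11.3 TPM) for neurons. For mesenchyme they were Col3a1 (311 and 313 TPM) and Foxc1 (4.38 and 3.67 TPM). Among surface epithelium markers Krt14 was lowest, at 1.53 and 1.27 TPM.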
